A study of Mus musculus with 14 samples.

Results

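The genes examined here encode the proteins of the cytosolic ribosome. They were chosen by symbol: every gene whose symbol starts with Rpl or Rps followed by a digit, plus Rplp0, Rplp1, Rplp2, Rpsa and Fau, without pseudogene symbols and the Rps6k kinases. This gave 90 genes of the 19959 listed in any of the tables, of which 87, 90 and 88 were listed in the TIL, Prdm1 and Bcl6 experiments. The symbol rule also takes in Rps19bp1, which is not a ribosomal protein, the ribosome assembly factor Rpl7l1, and the copies Rps27rt, Rpl37rt, Rpl32l and Rps23rg1, whose reads can be shared with their parent genes.

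RNA was sequenced from CD8+ T cells of subcutaneous E.G7 tumors, a mouse lymphoma line that carries ovalbumin, in 14 libraries, 2 for each of 7 groups. The TIL experiment covers tumor-infiltrating lymphocytes (TILs) that were sorted on day 21 from Bcl6-RFP mice into the CD8+ populations Bcl6+, TIM-3+ and DN; all 3 groups carry the reporter, and DN is not spelled out in the labels. The remaining experiments used OT-I cells, whose transgenic receptor recognizes ovalbumin, taken from the tumors about 8 days after transfer. One compared Prdm1-overexpressing with control OT-I cells and the other Bcl6-overexpressing with control OT-I cells; Prdm1 and Bcl6 encode repressors of transcription, and overexpressing and control cells were transferred together. The vector of the control cells, the age of the mice and whether replicates came from separate animals are not given in the labels, so the p-values reflect only how far these libraries spread, which may be technical.

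Ribosomal proteins are needed in fixed proportion to each other, and cells make the proteins from a large set of short, abundant mRNAs. Most of these mRNAs begin with a C followed by a run of pyrimidines, the terminal oligopyrimidine (TOP) motif, through which the mTORC1 kinase and the RNA-binding protein Larp1 adjust their translation and stability together. In CD8+ T cells, ribosome production goes up when a cell is activated and divides.

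The stretch around the annotated start of transcription is given for 5 members chosen because a pyrimidine run covers the start and for 2 with a short run. Each line holds 15 bases before the RefSeq start (build GRCm38.p6) and 15 bases from it, on the strand of the gene, with the longest run of C and T in capitals.
Fau: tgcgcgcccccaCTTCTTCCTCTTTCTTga
Rpl35: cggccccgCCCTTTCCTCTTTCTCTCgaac
Rps6: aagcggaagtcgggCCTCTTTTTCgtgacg
Rplp2: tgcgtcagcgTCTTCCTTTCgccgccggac
Rps27: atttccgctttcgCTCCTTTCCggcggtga
Rps4x: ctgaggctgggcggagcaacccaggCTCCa
Rpl41: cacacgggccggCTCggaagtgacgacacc
These windows lie at chr19:6057932-6057961 (Fau, plus strand), chr2:39005117-39005146 (Rpl35, minus), chr4:86857353-86857382 (Rps6, minus), chr7:141447636-141447665 (Rplp2, plus), chr3:90213634-90213663 (Rps27, minus), chrX:102189377-102189406 (Rps4x, minus) and chr10:128549154-128549183 (Rpl41, minus). RefSeq starts were matched for 70 of the 90 members. A run of at least 8 pyrimidines lay in the window of 30 of them (42.9%), against 13.8% of 26955 other genes, and the median longest run was 7 bases in members and 5 in other genes. The other 40 members lacked such a run, and the first annotated base was C in 25 of the 70 members and in 4475 of the 26955 other genes. For the run and the first base, a gene with several starts was represented by the start with the longest run, in members and other genes alike. Taking any start of a gene, the letters CTTTCC occurred on the gene's strand in 15.7% of members and 1.63% of other genes, and on the reverse strand in 0% and 1.49%. A short run says only that these letters are not in that window.

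Ribosomal protein genes took 5.49 times the share of counts in Bcl6-overexpressing OT-I cells that they took in control cells, and 0.528 of the control share in Prdm1-overexpressing cells. The share was 2.41% and 2.63% of counts in the 2 Bcl6+ TIL libraries, 2.58% and 2.48% in TIM-3+ TILs, and 3.62% and 3.49% in DN TILs. Bcl6+ and TIM-3+ TILs overlapped, and both lay below DN TILs. In the Prdm1 experiment the share was 0.649% and 0.382% in overexpressing cells, against 1.10% and 0.853% in control cells, with no overlap. In the Bcl6 experiment it was 5.63% and 4.97% in overexpressing cells, against 1.05% and 0.884% in control cells, with no overlap. With 2 libraries a group the exact permutation test cannot reach significance, so the shares are descriptions; totals ran from 18309162 to 22322079 counts per library, and the widest 95% Wilson interval of a share, which covers counting error only, spanned 0.0193 percentage points. The 3 experiments were processed and normalized separately, so groups were tested only within one. A share is relative to the counts on all other genes. A lower one can mean fewer such mRNAs in each cell, more RNA from other genes or a different mix of cells, which bulk libraries cannot tell apart. In the Bcl6 experiment other genes with annotated mRNAs under 600 bases were higher too, at a median log2 fold change of 3.19. Whether the libraries of both groups recovered short mRNAs alike is not given in the labels, and its part in the 5.49-fold share was not tested.

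**Figure D1:**
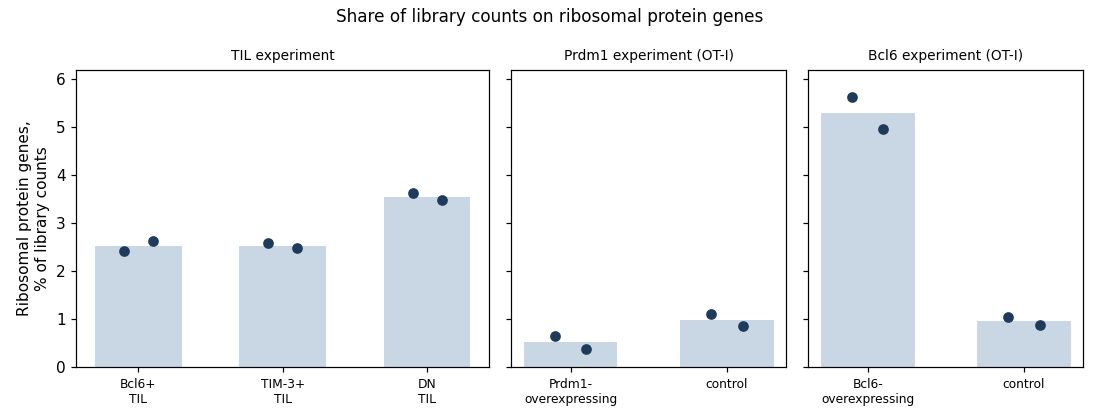
Share of library counts that fell on ribosomal protein genes, in percent, for each library (points) with the group mean (bars), in the 3 experiments. Bcl6-overexpressing OT-I cells stand at 5.63% and 4.97%, and their control cells at 1.05% and 0.884%.

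Levels between genes are compared as FPKM, which is scaled by gene length. The length implied by count and FPKM stood above the annotated mRNA length by uneven amounts. In the Bcl6 experiment it was 4842 against 774 bases for Rps19, 2141 against 964 for Rplp2 and 516 against 499 for Rplp1. Levels and ratios between different members, here and below, carry this unevenness. The median member stood at 89.6 and 103 FPKM in Bcl6+ TILs, 113 and 111 in TIM-3+ TILs, and 157 and 150 in DN TILs. It stood at 12.2 and 9.0 FPKM in Prdm1-overexpressing cells against 16.8 and 14.4 in their controls, and at 228 and 222 FPKM in Bcl6-overexpressing cells against 16.0 and 13.4 in theirs. Rplp0, the scaffold protein of the stalk that recruits translation factors, was the highest member in the TIL and Bcl6 experiments. Rplp0 had 1041 and 1168 FPKM in Bcl6+ TILs, 1272 and 1260 in TIM-3+ TILs, and 1524 and 1490 in DN TILs. Among the next highest in TILs were Rpl4, Rpl32 and Rps3a1, at means of 800.2, 607 and 579 FPKM over the 6 libraries. The lowest members were Rpl39l, a paralog known from male germ cells, at a mean of 0.511 FPKM, Rps10 at 1.37, Rpl36al at 1.73, Rpl32l at 2.12 and Rpl13a at 14.6. In the Prdm1 experiment the highest were Rpl4, Rplp0, Rpl3, Rps3a1 and Rps6, at means of 793, 562, 219, 185 and 98.9 FPKM over 4 libraries. In the Bcl6 experiment Rplp0, Rpl4, Rplp1 and Rps15 were among the highest, at 1516, 1204, 1023 and 609 FPKM. Rps10 and Rpl13a encode core ribosomal proteins, genes of this kind have near-identical processed pseudogenes, and whether reads shared with such copies were counted is not given in the sources used here, so these levels are uncertain.

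Short and long members stood in different proportion in the 2 groups of the Bcl6 experiment. Among the 84 tested members with an annotated mRNA length, 29 have an mRNA under 600 bases and 20 one of at least 1000 bases. The ratio of the median FPKM of the short to that of the long ones was 0.909 and 0.899 in Bcl6+ TILs, 0.962 and 0.932 in TIM-3+ TILs, and 1.09 and 1.06 in DN TILs. In the Prdm1 experiment it was 0.316 and 0.506 in overexpressing cells, against 0.298 and 0.360 in control cells. In the Bcl6 experiment it was 0.930 and 0.699 in overexpressing cells, against 0.30 and 0.343 in control cells. In the stalk, the FPKM of Rplp1, which pairs with Rplp2 on Rplp0, was 0.900 and 0.824 of that of Rplp0 in Bcl6-overexpressing cells, against 0.0599 and 0.0753 in control cells. In TILs that ratio lay between 0.274 and 0.370.

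**Figure D2:**
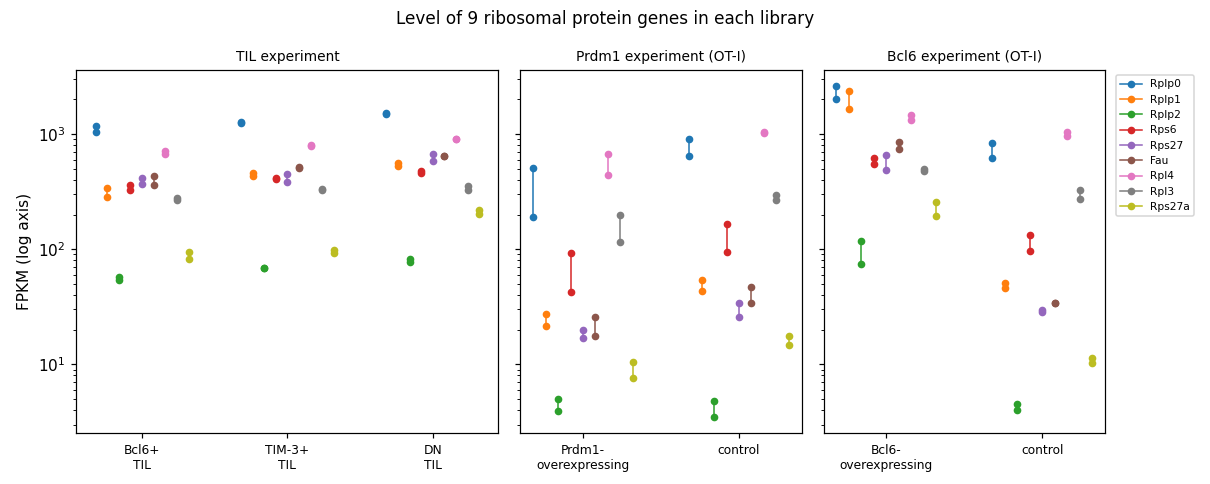
FPKM (log axis) of 9 ribosomal protein genes in every library, with a line joining the 2 libraries of a group. Rplp1 lies at 2346 and 1648 FPKM in Bcl6-overexpressing cells, against 50.4 and 46.4 FPKM in their controls, while Rpl4 lies at 1337 and 1474 FPKM against 1039 and 968 FPKM.

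Bcl6+ TILs were set against DN TILs. Of 86 members tested, 76 were lower in Bcl6+ cells and none was higher, with a median log2 fold change of -0.52 (0.699-fold). Over all 9748 genes tested, 7.69% were lower and 6.49% higher (14.2% in all), with a median of 0.0030. Both Bcl6+ libraries lay below both DN libraries in 84 members and above them in none, against 27.7% and 26.7% of all tested genes. Other genes with annotated mRNAs under 600 bases had a median of -0.26 (14.5% lower, 4.58% higher), and members of that length -0.62. With the mRNA-length trend of other genes removed, the median of all members was -0.39. The part of mRNA length was not tested further. Small-subunit genes were lower in 32 of 35, large-subunit genes in 41 of 48, and the stalk genes in 3 of 3. The edgeR quasi-likelihood test with Benjamini-Hochberg adjustment over all tested genes made these calls, and SE below is the standard error of the log2 fold change.

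Rps27a, which encodes ubiquitin fused to a small-subunit protein, changed most in both comparisons with DN cells. Its level was 173 and 198 CPM (counts per 1000000, TMM-scaled) in Bcl6+ TILs, against 455 and 415 CPM in DN TILs (log2 fold change -1.23, SE 0.087, adjusted p = 4.5e-07 by edgeR). The groups did not overlap. Rpl37rt, a copy of Rpl37 whose reads can be shared with that gene, had 11.6 and 13.6 CPM in Bcl6+ TILs against 22.9 and 23.4 CPM in DN TILs (-0.88, SE 0.24, edgeR adjusted p = 0.027). Rps28 had 79.4 and 89.2 CPM in Bcl6+ TILs against 160.2 and 138 CPM in DN TILs (-0.82, SE 0.12, edgeR adjusted p = 0.00023). All 3 lay below every DN library.

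In the stalk, Rplp1 was the most reduced, at 152 and 181 CPM in Bcl6+ TILs against 297 and 274 CPM in DN TILs (-0.78, SE 0.096, edgeR adjusted p = 7.2e-05), with Rplp2 at -0.51 and Rplp0 at -0.43, both lower. Rpsa, also known as the laminin receptor, and Fau, which is made as a fusion with a ubiquitin-like protein, were lower at -0.62 and -0.69. Rps6, the substrate of S6 kinase downstream of mTORC1, was lower at -0.43 (SE 0.059). Rpl5 and Rpl11, which together can bind Mdm2 and so activate p53, were lower at -0.26 and -0.64. Rps27, Rps27l, Rpl39, Rps4x and Rpl36a were lower at -0.67, -0.45, -0.73, -0.47 and -0.54. Rpl22, needed for the development of alpha-beta T cells in mice, and its paralog Rpl22l1 did not pass, at -0.40 and -0.22 (adjusted p = 0.062 and 0.35 by edgeR), nor did Rpl36al at -0.15. Rack1, a small-subunit protein outside the symbol rule, was lower at -0.32.

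When the libraries were scaled to the ribosomal protein genes themselves, 5453 genes were higher and 194 lower in Bcl6+ TILs over all genes (median 0.52). Relative to the rest of the module, 3 members were then higher and 7 lower. The 3 were Rpl3, Rpl5 and Rpl7l1, and Rps27a led the 7, at -0.72 relative to the module (adjusted p = 3.6e-05 by edgeR); apart from Rpl5 and Rps27a, these were chosen after their values were seen. Ribosome biogenesis factors, which process ribosomal RNA and assemble the subunits, were lower in 3 of 45 and higher in none (median -0.06), led by Nhp2 at -0.46, Imp4 at -0.30 and Fbl at -0.44. Elongation factors were lower in 3 of 6, among them Eef1a1 at -0.36 and Eef1b2 at -0.33. Other TOP mRNAs were lower in 6 of 15, among them Npm1 at -0.42 and Naca at -0.40. Initiation factors were lower in 1 of 24, tRNA synthetases higher in 2 of 20, and genes that control ribosome production through mTORC1 and Myc higher in 3 of 20. Genes of the mitochondrial ribosome were lower in 3 of 77 and higher in 1 (median -0.08).

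TIM-3+ TILs were also set against DN TILs, with the same DN libraries. Of 86 members, 56 were lower in TIM-3+ cells and none higher, with a median of -0.33, against 13.2% lower and 14.9% higher (28.2% in all) of the tested genes. The TIM-3+ libraries lay wholly below the DN libraries in 76 members and wholly above in 2, against 32.8% and 32.1% of all tested genes. Other genes with annotated mRNAs under 600 bases had a median of -0.27 (19.1% lower, 3.05% higher), and members of that length -0.45. With the mRNA-length trend of other genes removed, the median of all members was -0.25. The part of mRNA length was not tested further. Small-subunit genes were lower in 23 of 35, large-subunit genes in 31 of 48 and stalk genes in 2 of 3. Rps27a had 199.5 and 186 CPM in TIM-3+ TILs, against 455 and 415 CPM in DN TILs (-1.17, SE 0.087, edgeR adjusted p = 3.1e-07). Rpl35 had 247 and 258 CPM in TIM-3+ TILs against 443 and 401 CPM in DN TILs (-0.74, SE 0.076, edgeR adjusted p = 6.7e-06). Rpl22 had 54.6 and 58.5 CPM in TIM-3+ TILs against 91.7 and 89.9 CPM in DN TILs (-0.68, SE 0.13, edgeR adjusted p = 0.0015). None of these 3 overlapped.

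Rplp0, Rplp1, Fau, Rps6, Rpl5, Rps27, Rps4x, Rpl36a and Rack1 were lower too, at -0.30, -0.33, -0.38, -0.22, -0.44, -0.64, -0.43, -0.60 and -0.27. Rplp2, Rpsa, Rpl11, Rpl39, Rps27l, Rpl22l1 and Rpl36al did not pass, at -0.26, -0.10, -0.14, -0.24, 0.00, 0.10 and -0.12. Scaled to the module, all genes gave 3488 higher and 663 lower in TIM-3+ TILs, and the members 8 higher and 7 lower. Biogenesis factors were lower in 17 of 45 and higher in none (median -0.29), led by Gnl3 at -0.86, Wdr12 at -1.0 and Dkc1 at -0.57. The mTORC1 and Myc list was lower in 8 of 20, among them Sesn3, an inhibitor of mTORC1, at -2.13 and Myc at -0.66. Elongation factors were lower in 2 of 6, and other TOP mRNAs lower in 4 of 15 and higher in 2. Initiation factors were higher in 3 of 24 and lower in 1, tRNA synthetases higher in 1 of 20 and lower in 2, and mitochondrial ribosome genes higher in 2 of 77 and lower in 4.

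Between Bcl6+ and TIM-3+ TILs, 36 of 86 members were lower and 1 was higher in Bcl6+ cells, with a median of -0.22, against 19.6% lower and 19.1% higher (38.6% in all) of the tested genes. Bcl6+ libraries lay wholly below TIM-3+ libraries in 56 members and wholly above in 7, against 34% and 34.8% of all tested genes. The balance rested on the scaling. With TPM-type scaling 17 members were higher and 5 lower (median 0.04), and with total counts 6 were higher and 8 lower (median -0.04), while the median of all genes moved to 0.27 and 0.19, and the calls over all genes to 3530 higher and 1115 lower and to 2896 and 1283, against 1857 and 1907 with TMM. Scaling moves all genes of a library alike, so the members' median less that of all genes is fixed near -0.23. That value does not show which scaling is right.

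The most reduced members were Rpsa, at 380 and 476 CPM in Bcl6+ TILs against 634 and 594 CPM in TIM-3+ TILs (-0.52, SE 0.087, edgeR adjusted p = 3e-04), Rps2 at -0.51 and Rps26 at -0.50. They stayed below zero under both scalings named above. Rpl35 was the 1 member called higher, at 313 and 290 CPM in Bcl6+ TILs against 247 and 258 CPM in TIM-3+ TILs (0.26, SE 0.076, edgeR adjusted p = 0.017). Rplp1, Fau, Rpl11, Rpl39 and Rps27l were lower, at -0.45, -0.31, -0.50, -0.49 and -0.45. Rplp0, Rplp2 and Rps6 were lower at -0.14, -0.25 and -0.20, and turned to 0.13, 0.0068 and 0.06 with TPM-type scaling. Rpl5 at 0.17, Rpl22 at 0.29, Rpl22l1 at -0.32, Rps27 at -0.02, Rps4x at -0.04, Rpl36a at 0.06, Rpl36al at -0.03 and Rack1 at -0.05 did not pass. Relative to the module, 4 members were higher (Rpl5, Rpl22, Rpl35 and Rps14, the last chosen after its values were seen) and 7 lower. Over all genes, scaling to the module gave 2730 higher and 1173 lower.

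In this comparison biogenesis factors were higher in 13 of 45 and lower in none (median 0.14), led by Nop2 at 0.73, Wdr12 at 1.04 and Sdad1 at 0.91, and the mTORC1 and Myc list was higher in 8 of 20, with Sesn3 at 2.39. Other TOP mRNAs were lower in 8 of 15 and higher in 3. Elongation factors gave Eef1a1 lower at -0.40 and Eef1g higher at 0.38, initiation factors were lower in 6 of 24 and higher in 2, tRNA synthetases higher in 5 of 20 and lower in 1, and mitochondrial ribosome genes higher in 5 of 77 and lower in 4. Other cell types' markers varied across the TIL groups. Summed B cell markers came to 16.8 to 19.8 CPM in Bcl6+, 0.635 to 0.974 CPM in TIM-3+ and 8.01 to 11.5 CPM in DN TILs, and macrophage and monocyte markers to 823 to 896, 1534 to 1545 and 802 to 814 CPM. Most of the macrophage sum was Spp1, at 628 and 584 CPM in Bcl6+, 1479.5 and 1487 in TIM-3+ and 656 and 664 in DN TILs. Of the 8 macrophage markers tested, 7 were higher and 1 lower in Bcl6+ against TIM-3+ TILs (median 1.79), 4 higher and none lower in Bcl6+ against DN TILs (0.86), and 1 higher and 4 lower in TIM-3+ against DN TILs (-1.18). CD4 and regulatory T cell markers summed to 4.02 to 5.41 CPM in Bcl6+, 8.43 to 11.4 in TIM-3+ and 18.1 to 19.5 CPM in DN TILs, and erythroid markers to 44.4 to 48.4, 20.9 to 27.6 and 73.9 to 77.5 CPM. Dendritic cell markers came to 54.4 to 72.5 CPM in Bcl6+, 65.1 to 68.7 in TIM-3+ and 80.9 to 89.8 CPM in DN TILs. Like the ribosomal protein genes, the CD4, erythroid and dendritic cell sums were highest in DN TILs. The B cell and neutrophil sums were highest in Bcl6+ and the macrophage sum in TIM-3+ TILs. For stromal and for lymphoma markers, the sums of Bcl6+ and DN TILs overlapped. Mitochondrially encoded RNA, followed as a sign of RNA quality, took 1.41% and 1.37% of counts in Bcl6+, 1.06% and 1.07% in TIM-3+ and 1.58% and 1.56% in DN TILs. That share covers every mitochondrially encoded gene listed. A separate, shorter RNA quality list had 5 tested genes. Of these, 3 were lower for Bcl6+ and 5 for TIM-3+ against DN TILs (medians -0.22 and -0.56). The part of these markers in the results was not tested. CD8 identity genes summed to 6537 to 6621 CPM in Bcl6+, 9912 to 10009 in TIM-3+ and 7300.0 to 7360.1 CPM in DN TILs.

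**Figure D3:**
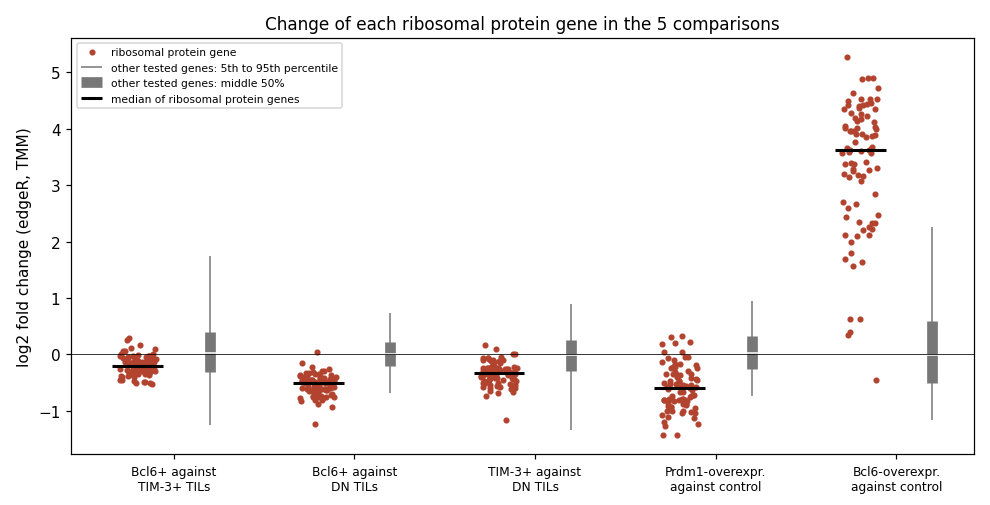
Log2 fold change of each tested ribosomal protein gene (points, with their median as a black line) beside the other tested genes (grey), in the 5 comparisons. The members' median is -0.22, -0.52 and -0.33 in the TIL comparisons, -0.60 for Prdm1 and 3.63 for Bcl6 overexpression.

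In Prdm1-overexpressing OT-I cells no member passed the test against control cells, in either direction, of 85 tested by edgeR. Unadjusted, 32 had p under 0.05. DESeq2 called 19 lower, with 354 higher and 232 lower over all genes. With the replicate number as a block, which the labels do not tie to mice, edgeR called 37 lower. Over all genes that block gave 1002 higher and 657 lower. The median was -0.60 and 78 of 85 log2 fold changes were negative; over all 9947 genes tested 0.201% were called lower and 1.16% higher (1.36% in all). Overexpressing libraries lay wholly below control libraries in 55 members and wholly above in 2, against 21.7% and 29.3% of all tested genes. The 2 overexpressing libraries differed widely. Rpsa had 191 and 80.2 CPM in overexpressing cells against 440.1 and 293 CPM in control cells (-1.43, SE 0.39, edgeR adjusted p = 0.12). Rplp0 had 927 and 331 CPM in overexpressing cells against 1516 and 1058 CPM in control cells (-1.03, SE 0.43, edgeR adjusted p = 0.25). In both genes the groups did not overlap, and the second overexpressing library was the lowest.

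Without the first overexpressing library 27 members were called lower, with 295 genes higher and 348 lower in all, and without the second 1, with 128 higher and 55 lower in all, against 115 and 20 with every library. Fau, Rps6, Rps4x and Rpl5 stood at -0.79, -0.81, -1.14 and -0.67, and Rplp1 at -0.88, none past the threshold. Rplp2 and Rpl36al stood above zero, at 0.21 and 0.31. Rack1 stood at -0.77, and Rpl36a, Rpl11, Rpl22l1, Rpl22 and Rpl39 lay between Rps27 at -0.60 and Rps27l at -0.04. The paralog Rpl39l was listed at 0.948 and 0 FPKM in overexpressing cells, against 0.127 and 0 FPKM in control cells. Elongation factors, initiation factors, other TOP mRNAs, biogenesis factors, tRNA synthetases and mitochondrial ribosome genes had no call, with medians of -0.63, -0.16, -0.33, -0.21, -0.08 and -0.20. In the mTORC1 and Myc list Larp4, which binds poly(A) tails, was lower at -1.46 (adjusted p = 0.034 by edgeR). Neutrophil markers summed to 93.5 to 105 CPM in overexpressing cells and 3.81 to 5.91 CPM in control cells. Dendritic cell markers came to 128 to 139 CPM against 180 to 189 CPM, with 1 of 3 tested lower. Macrophage and monocyte markers came to 1225 to 1909 CPM against 1125 to 1207 CPM, with no call among 9 tested (median -0.32). The remaining cell type lists had no call. Mitochondrially encoded RNA took 0.735% and 0.352% of counts in overexpressing cells, on either side of 0.646% and 0.576% in control cells. The part of these markers and of RNA quality in the result was not tested.

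In Bcl6-overexpressing OT-I cells nearly all members were higher than in control cells: 82 of 86 higher and 1 lower, with a median log2 fold change of 3.63, or 12.3-fold. Changes followed mRNA length in other genes too, and with the length trend of those genes removed the members' median was 1.20. Over all 9669 genes tested 25.4% were higher and 23.4% lower (48.8% in all), with a median of 0.0023. Overexpressing libraries lay wholly above control libraries in 85 members and wholly below in 1, against 37.7% and 38% of all tested genes. Small-subunit genes were higher in 34 of 35, large-subunit genes in 45 of 48, stalk genes in 3 of 3, and 81 members were at least 2-fold higher. Rplp1 changed most, at 1177 and 828 CPM in overexpressing cells against 26.8 and 24.9 CPM in control cells (38.8-fold, log2 5.28, SE 0.22, edgeR adjusted p = 2.9e-13). Rpl36 had 371 and 243 CPM in overexpressing cells against 9.89 and 10.5 CPM in control cells (4.91, SE 0.23, edgeR adjusted p = 8.7e-13), and turned to -0.10 with the gene length and GC trends removed. Rps23, a protein of the decoding centre, had 567 and 484 CPM in overexpressing cells against 17.3 and 17.9 CPM in control cells (4.90, SE 0.20, edgeR adjusted p = 2.2e-13). In all 3 the groups lay far apart beside the gap between replicates.

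The change was uneven. Rplp0 rose by 1.57 (2.97-fold), with 4347 and 3337 CPM in overexpressing cells against 1486 and 1098 CPM in control cells, and Rpl3 by 0.63. Rpl4 had 2697 and 2977 CPM in overexpressing cells against 2218 and 2084 CPM in control cells and did not pass (0.40, SE 0.17, edgeR adjusted p = 0.058), nor did Rps10 at 0.63 and Rpl36al at 0.34. Rpl7l1, the assembly factor, was the 1 member called lower, at 145 and 179 CPM in overexpressing cells against 232 and 212 CPM in control cells (-0.46, SE 0.17, edgeR adjusted p = 0.034). Rplp2, Fau, Rps27, Rps27l, Rpl36a, Rpl39 and Rpl11 were higher at 4.41, 4.46, 4.22, 3.41, 4.36, 3.92 and 3.62. Rpsa, Rps6, Rpl5, Rps4x, Rpl22, Rpl22l1 and Rack1 were higher at 2.70, 2.27, 1.81, 2.44, 2.48, 2.20 and 1.82.

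Short mRNAs outside the module were higher as well. The median log2 fold change of other genes was 3.19 for annotated mRNAs under 600 bases (136 genes, 78.7% called higher), 2.39 for 600 to 800 bases, 1.49 for 800 to 1000, 0.37 for 1000 to 1500, -0.15 for 1500 to 2500 and -0.11 for over 2500. In the same bins the members' medians were 4.11, 3.66, 2.84, 3.59, 2.67 and 4.03, the last over 3 members of which 2 were higher and 1 lower. Across the 84 members with a length, the log2 fold change had Pearson r = -0.37 and Spearman rho = -0.41 with mRNA length, and -0.57 and -0.60 with coding length. Across 9447 other genes these were -0.32 and -0.22 with mRNA length, and -0.27 and -0.18 with coding length. With the GC content of the longest annotated transcript they were 0.41 and 0.49 across 9467 other genes, and 0.12 and 0.17 across 86 members. All are descriptions across genes that share the 4 libraries. With the mRNA-length trend of the other genes removed, 66 members were higher and 6 lower, with a median of 1.20, and with the trend of all genes removed 62 were higher and 8 lower, with a median of 1.11. Over all genes the first of these corrections gave 2372 higher and 2340 lower, and the second 2352 and 2369. Rps27 then stood at -0.32 and Rpl22 at -1.04 by the first of these, and Rplp1 at 1.90. Both corrections were chosen after the data were seen. The part of mRNA length or GC content in the change was not tested beyond these values. Windows with a run of at least 8 pyrimidines had a median of 3.76 (29 members) and those with a shorter run 3.31 (37 members); in Bcl6+ against DN TILs the same medians were -0.51 and -0.51.

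**Figure D4:**
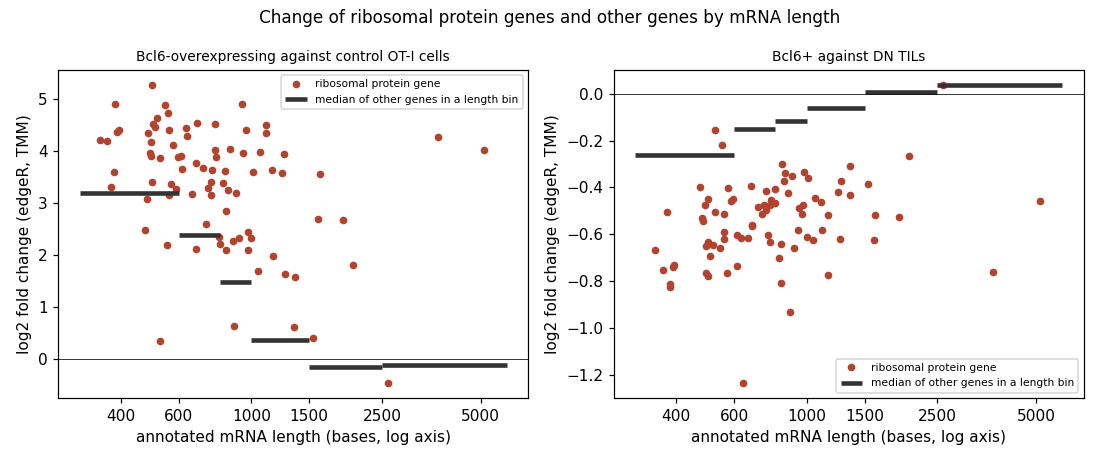
Log2 fold change of ribosomal protein genes (points) against the length of their annotated mRNA (bases, log axis), with the median of other genes in each length bin (bars), for Bcl6 overexpression (left) and Bcl6+ against DN TILs (right). On the left, other genes under 600 bases have a median of 3.19 and members 4.11; on the right these are -0.26 and -0.62.

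Among other parts of the translation machinery, elongation factors were higher in 4 of 6, led by Eef1b2 at 2.84 and Eef1d at 1.52. Of the 15 other TOP mRNAs tested, 8 were higher and 2 lower, and the chaperone subunit Pfdn5 stood at 3.01, Eif3f at 2.55 and Tpt1 at 2.34. Of 46 biogenesis factors 14 were higher and 6 lower, led by Nop10, a small protein of H/ACA particles, at 4.37, Nhp2 at 2.98 and Fbl at 2.35. Initiation factors were higher in 8 of 24 and lower in 5, and the mTORC1 and Myc list higher in 10 of 20 and lower in 2, with Eif4ebp1 at 2.25. Of 21 tRNA synthetases 10 were lower and 1 higher, led by Dars at -1.41. Mitochondrial ribosome genes, a list added after the first results, had 56 higher and 1 lower of 77, at a median of 1.40. Marker lists went both ways. Neutrophil markers were higher in 4 of 4 tested (79.9 to 90.7 CPM summed in overexpressing cells, 2.44 to 4.33 CPM in control cells). Erythroid markers were higher in 3 of 3 (15.6 to 20.9 CPM and 0.984 to 1.18 CPM), and macrophage and monocyte markers in 8 of 9 with 1 lower (816 to 898 CPM and 857 to 1019 CPM). Stromal and endothelial, dendritic cell, CD4 and regulatory T cell, and lymphoma and thymocyte markers were lower in 1 of 2, 1 of 2, 1 of 1 and 1 of 1 tested. In overexpressing cells they summed to 63.8 to 67.5, 141 to 161, 27.2 to 28.8 and 20.1 to 20.3 CPM. In control cells these sums were 118 to 129, 198 to 202, 48.0 to 50.3 and 50.1 to 55.0 CPM. B cell markers had no call. Mitochondrially encoded RNA took 0.517% and 0.933% of counts in overexpressing cells, against 0.538% and 0.509% in control cells. Of the 5 tested genes on the shorter RNA quality list 3 were higher and none lower (median 1.01). The part of these markers and of RNA quality in the result was not tested.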

How the data were processed

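Per the file headers, each library has a deposited raw count and an FPKM value per gene. The submitters' processing notes name mm10 with Bowtie2, Subread, featureCounts, edgeR and DESeq2 for TILs and HISAT2, featureCounts, RSEM and DESeq2 for OT-I cells; versions, roles and strand use do not appear in the sources used here. Counts were tested with the edgeR 4.0.16 quasi-likelihood test (R 4.3.3, TMM scaling), two-sided, on genes that averaged 1 FPKM or more, at a Benjamini-Hochberg adjusted p of 0.05 over all tested genes. TIL libraries, 6 in all, were fitted together, and the OT-I experiments separately; of the members, 86, 85 and 86 were tested. mRNA lengths are those of the principal transcript in GENCODE M21. The tests were tried on simulated data. Members, gene lists and tests were chosen with earlier results of these data known. Named genes were a fixed set of members, the 3 called members with the largest change in each direction, the members with the highest and lowest levels, and up to 3 genes per other list with the smallest p; the run of 8 pyrimidines, the motif, the mRNA-length analyses and the mitochondrial list were chosen after expression results were seen. Alternatives used limma 3.58.1 and DESeq2 1.42.0. Some genes that this rule names are not reported here. No snoRNA host gene of the list was listed in the tables used here. No replicate pair held identical values.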

Additional observations from a re-analysis of the deposited data

How the results depend on the processing

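Scaling to the ribosomal protein genes sets the summed counts of the members equal in all libraries. A median under it therefore says nothing of the direction of the module, and it is set aside here. Under every other alternative, the lower levels in Bcl6+ and in TIM-3+ against DN TILs kept the direction of their median. The higher levels in Bcl6-overexpressing cells did so too. The median between Bcl6+ and TIM-3+ TILs turned with TPM-type scaling, and that of Prdm1 overexpression when scaled to the ribosomal protein genes. Both scalings shifted all genes. The members' median less that of all genes was -0.23 and -0.65, a difference that a scaling factor leaves nearly unchanged by construction. Other causes were not tested. In Bcl6+ against TIM-3+ TILs, total counts gave 6 higher, 8 lower and a median of -0.036, and TPM-type scaling 17 higher, 5 lower and 0.045. Upper-quartile scaling, the gene length trend removed, the length and GC trends removed, and DESeq2 each gave 2 higher. No filter gave 0 higher. A minimum of 10 FPKM gave 4 higher, 22 lower and -0.13, and scaling to the ribosomal protein genes gave 4 higher, 7 lower and -0.030. In the same order, calls higher and lower over all genes were 2140 and 1678, 1801 and 1922, 1828 and 1904, 1902 and 2002, 1845 and 2078, 1129 and 1140, and 2730 and 1173. The log2 ratio of shares, -0.0060, became 0.067 with summed FPKM. In Bcl6+ against DN TILs the median was -0.44 with TPM-type scaling, -0.35 with the mRNA-length trend of all genes removed and -0.39 with that of other genes removed, and scaling to the ribosomal protein genes gave 3 higher, 7 lower and -0.0050. Over all genes that last scaling gave 5453 higher and 194 lower. In TIM-3+ against DN TILs the median was -0.49 with total counts, -0.52 with TPM-type scaling, and -0.21 and -0.25 with the 2 mRNA-length trends (all genes, then other genes) removed, and scaling to the ribosomal protein genes gave 8 higher, 7 lower and -0.0048. Over all genes it gave 3488 higher and 663 lower. For Prdm1 overexpression, members called lower are given with all genes called higher and lower in brackets, which were 115 and 20 with TMM. They numbered 3 with DESeq2 size factors (191 and 84), 6 with total counts (171 and 121) and 21 with TPM-type scaling (291 and 205). Upper-quartile scaling gave 2 (176 and 60), the gene length trend removed 13 (288 and 165), and length and GC removed 7 (210 and 80). A minimum of 10 FPKM gave 9 (103 and 59) and DESeq2 19 (354 and 232). The 2 mRNA-length trends removed gave 19 (406 and 262) and 20 (391 and 263). Scaling to the ribosomal protein genes gave a median of 0.26. For Bcl6 overexpression the median was 3.29 with TPM-type scaling, 2.75 with the gene length trend removed and 2.54 with length and GC removed. Calls lower numbered 0 with limma on log2(FPKM + 1) or log2(FPKM + 0.1). Over all genes these gave 2727 and 2684 higher and 1819 and 1775 lower. The median was 1.12 with 9 lower when scaled to the ribosomal protein genes, 1.11 with 8 lower when the mRNA-length trend of all genes was removed, and 1.20 with 6 lower for the trend of other genes. Over all genes, in the same order, 8883, 2369 and 2340 were lower and 226, 2352 and 2372 higher. Both mRNA-length alternatives were chosen after seeing the data.

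Leaving out 1 library at a time gave 0 to 1 higher, 20 to 43 lower, a median of -0.26 to -0.16 and a log2 share ratio of -0.068 to 0.053 for Bcl6+ against TIM-3+ TILs. It gave 62 to 74 lower, -0.58 to -0.48 and -0.56 to -0.44 for Bcl6+ against DN TILs, and 34 to 48 lower, -0.37 to -0.29 and -0.52 to -0.46 for TIM-3+ against DN TILs. It gave 0 to 27 lower, -0.95 to -0.44 and -1.35 to -0.59 for Prdm1 overexpression, and 81 to 83 higher, 0 to 1 lower, 3.46 to 3.82 and 2.34 to 2.58 for Bcl6 overexpression. A group left with 1 library was assumed to vary like the others. OT-I cells of both kinds were transferred together, but the labels do not say that replicate numbers mark the same mice or pair samples; deviations of same-numbered libraries correlated at 0.28 in the Prdm1 experiment and between -0.055 and 0.0359 elsewhere over all genes, and at 0.499 and between -0.569 and 0.524 over the members. With the replicate number as a block, 37 members were lower in Prdm1-overexpressing cells and none higher, while calls over all genes came to 1002 higher and 657 lower, against 115 and 20 without it. Calls of members changed by less than 1.5 times elsewhere, as with 34 lower in Bcl6+ against TIM-3+ TILs. No symbol held -ps, so adding such symbols changed no share.

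Single genes turned as follows. Between Bcl6+ and TIM-3+ TILs, Rplp0 became 0.045 with total counts and 0.050 when scaled to the ribosomal protein genes, and with TPM-type scaling Rplp0 became 0.13, Rplp2 0.0068, Rps6 0.060, Rps27 0.24, Rps4x 0.22 and Rack1 0.21. Scaled to the ribosomal protein genes, Bcl6+ against DN TILs gave Rplp0 0.078, Rplp2 0.0024, Rps6 0.086, Rpl5 0.25, Rps27l 0.069, Rps4x 0.039 and Rack1 0.19, and TIM-3+ against DN TILs Rplp0 0.028, Rps6 0.10 and Rack1 0.052. On that scale Bcl6 overexpression gave Rplp0 -0.94, Rps6 -0.22, Rpl5 -0.68, Rpl22 -0.025, Rpl22l1 -0.30, Rps4x -0.044, Rpl36al -2.15 and Rack1 -0.69. With length and GC removed Rpl36 became -0.10. With the mRNA-length trend of all genes removed, Rpl22 became -1.19, Rpl22l1 -0.97, Rps27 -0.51, Rps27l -0.062 and Rpl36al -2.98. With that of other genes removed, Rpl22 became -1.04, Rpl22l1 -0.85, Rps27 -0.32 and Rpl36al -2.85.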
